A study of Mus musculus with 16 samples.

Results

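The 9 genes described here make, break down, carry or take up retinoids, the vitamin A derivatives that include retinoic acid. They were chosen by symbol, by looking up the Ensembl gene IDs of the deposited table, and all 9 were found among its 24452 genes. Mouse embryonic stem cells were differentiated in retinoic acid and their total RNA was sequenced after removal of ribosomal RNA. The wild-type line E14 (WT) was compared with a line labelled Suz12-KO, in which the gene for a core subunit of Polycomb repressive complex 2 is named as knocked out. Polycomb repressive complex 2 methylates histone H3 at lysine 27 over silent developmental genes. Cells of both lines grew on gelatin in serum medium with LIF, a cytokine that holds them undifferentiated, and were collected at 0 h. The other groups of each line spent 24, 48 or 72 h in the equivalent medium with 1 µM all-trans retinoic acid and without LIF, renewed every 24 h. The labels give 16 samples in 8 groups of 2, and the table gives 1 column of RPKM, which is reads scaled to gene length and to the reads of the column, for each group. The sources used here do not say how the 2 samples entered a column, so no value below carries a spread between cultures. The labels do not say which part of Suz12 is altered or how many clones were used.

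Retinol enters cells through the receptor Stra6 and is oxidised to retinaldehyde by Rdh10. Retinaldehyde is oxidised to retinoic acid by Aldh1a2 and Aldh1a3, or returned to retinol by Dhrs3. Cyp26a1 and Cyp26b1 are cytochrome P450 enzymes that oxidise retinoic acid to less active products. Crabp1 and Crabp2 are cytoplasmic proteins that bind retinoic acid, and Crabp2 is known to pass it to nuclear receptors. The receptors bind DNA at pairs of short repeats called retinoic acid response elements, and Cyp26a1 is a textbook example of a gene controlled through them, so that retinoic acid raises the enzyme that removes it.

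Promoter windows from RefSeq on GRCm38.p6, which run from 250 bases before to 50 bases after an annotated start, were matched by symbol for 6 of the 9 genes. Each was searched on both strands for direct repeats of the half-site AGGTCA, the variant AGTTCA, the variant GGGTCA or the variant GGTTCA, separated by 1, 2 or 5 bases of any kind. The windows shown are those of the gene with the largest change at 24 h in both lines, of another clearance gene that was also high by then, and of the synthesis gene whose large change came last. Capitals mark the direct repeat that was found, and a window in lower case throughout held none.
Cyp26a1: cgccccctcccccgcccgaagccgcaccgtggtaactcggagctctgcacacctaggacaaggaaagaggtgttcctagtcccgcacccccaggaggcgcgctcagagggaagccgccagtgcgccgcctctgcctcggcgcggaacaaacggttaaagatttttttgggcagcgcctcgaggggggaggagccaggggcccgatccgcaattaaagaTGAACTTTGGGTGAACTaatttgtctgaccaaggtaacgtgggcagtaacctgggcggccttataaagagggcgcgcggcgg
Dhrs3: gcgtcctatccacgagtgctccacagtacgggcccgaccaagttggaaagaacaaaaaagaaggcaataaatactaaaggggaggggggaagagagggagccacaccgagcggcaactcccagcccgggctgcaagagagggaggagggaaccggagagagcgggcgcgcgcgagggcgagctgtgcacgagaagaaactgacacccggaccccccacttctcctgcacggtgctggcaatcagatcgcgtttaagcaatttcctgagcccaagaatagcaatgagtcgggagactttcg
Aldh1a2: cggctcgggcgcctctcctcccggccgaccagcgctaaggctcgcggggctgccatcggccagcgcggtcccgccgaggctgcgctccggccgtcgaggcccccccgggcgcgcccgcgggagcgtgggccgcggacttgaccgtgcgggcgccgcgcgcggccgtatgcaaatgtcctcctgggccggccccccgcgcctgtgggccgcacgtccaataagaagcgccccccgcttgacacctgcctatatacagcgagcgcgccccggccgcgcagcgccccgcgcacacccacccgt
The Cyp26a1 window is chr19:37697558-37697857 on the plus strand, the first Dhrs3 window is chr4:144892577-144892876 on the plus strand, and the Aldh1a2 window is chr9:71215539-71215838 on the plus strand. The repeat in the Cyp26a1 window reads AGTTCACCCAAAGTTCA on the opposite strand, with 5 bases between its half-sites, and lies 32 to 16 bases before the start. A repeat with this spacing was found in 32 of 32851 windows of the same length (0.0974%), some of which overlap each other. No window of the other 5 matched genes held a repeat with any of the 3 spacings. A single half-site was present in 43.7% of all windows. The Aldh1a2 window is 78% G and C, and its ratio of observed to expected CpG pairs of 1.11 is higher than in 98.3% of windows. That ratio is 0.894 in the Cyp26a1 window, 0.824 in the first Dhrs3 window and 0.543 in the Crabp1 window, against a median of 0.384. It is below that median in the Cyp26b1 window, at 0.315, and in the 4 Stra6 windows, at 0.184 to 0.366, and the other Dhrs3 windows have 0.675 and 0.594. These matches describe the letters of the windows, and binding was not measured.

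Depth was similar in the 8 columns, at 24731176 to 32153765 reads, but protein-coding genes received 21.0% to 30.7% of them and a single non-coding gene, Gm42418, 56.5% to 65.5%. For this reason RPKM values are printed as deposited, while every fold, log2 difference and test uses RPKM divided by each column's median-of-ratios factor, called scaled RPKM. Where 4 values are given in a row, they are those of 0, 24, 48 and 72 h. Bracketed ranges are exact 95% intervals from the recovered read numbers, and cover counting error alone. The 10 stem cell markers summed to 465 RPKM in WT and 616 RPKM in Suz12-KO cells at 0 h, all 10 of them at 1 RPKM or more, and to 12.3 and 21.6 RPKM at 72 h. The 5 smooth muscle markers summed to 0.978 and 0.328 RPKM at 0 h and to 289 and 345 RPKM at 72 h. At 72 h 3 of the 5 in WT and 4 in Suz12-KO cells were at 1 RPKM or more. Tagln alone had 164 and 171 RPKM. The 7 mesoderm markers summed to 1.57 RPKM or less in every column. Neural, fibroblast and trophoblast markers summed to between 9.73 and 37.5, 0.399 and 9.97, and 1.17 and 5.46 RPKM per column. Suz12 RNA itself was at 2.94, 2.58, 1.26 and 0.995 RPKM in WT cells at 0, 24, 48 and 72 h and at 2.59, 3.09, 2.38 and 1.35 RPKM in the columns labelled Suz12-KO. On scaled RPKM the Suz12-KO to WT ratio of Suz12 RNA was 0.734 at 0 h (0.633 to 0.852), 0.974 at 24 h (0.843 to 1.13), 1.66 at 48 h (1.37 to 2.02) and 1.30 at 72 h (1.03 to 1.65). No column labelled Suz12-KO lacked the RNA, and Suz12-KO below refers to the label. In bulk RNA, fewer cells of a type and less RNA per cell cannot be told apart.

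RNA of 8 of the 9 genes was higher in both lines after the change to medium with retinoic acid and without LIF. In every comparison with 0 h, retinoic acid, the loss of LIF and time in culture cannot be told apart. In the test described below, the clearance genes Cyp26a1 and Dhrs3, the binding protein Crabp2 and the receptor Stra6 were called higher from 24 h. Crabp1, Cyp26b1 and Rdh10 were called higher from 48 h, and Aldh1a2 at 72 h. Smaller rises beyond counting error came earlier for Cyp26b1 (24 h, both lines), Crabp1 (24 h, WT) and Aldh1a2 (48 h, Suz12-KO). The remaining gene, Aldh1a3, stayed at 0.230 RPKM or less in every column. The line difference averaged over time passed the test for none of the 8 genes that entered it, and single times at which the lines lay far apart are given gene by gene below.

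**Figure D1:**
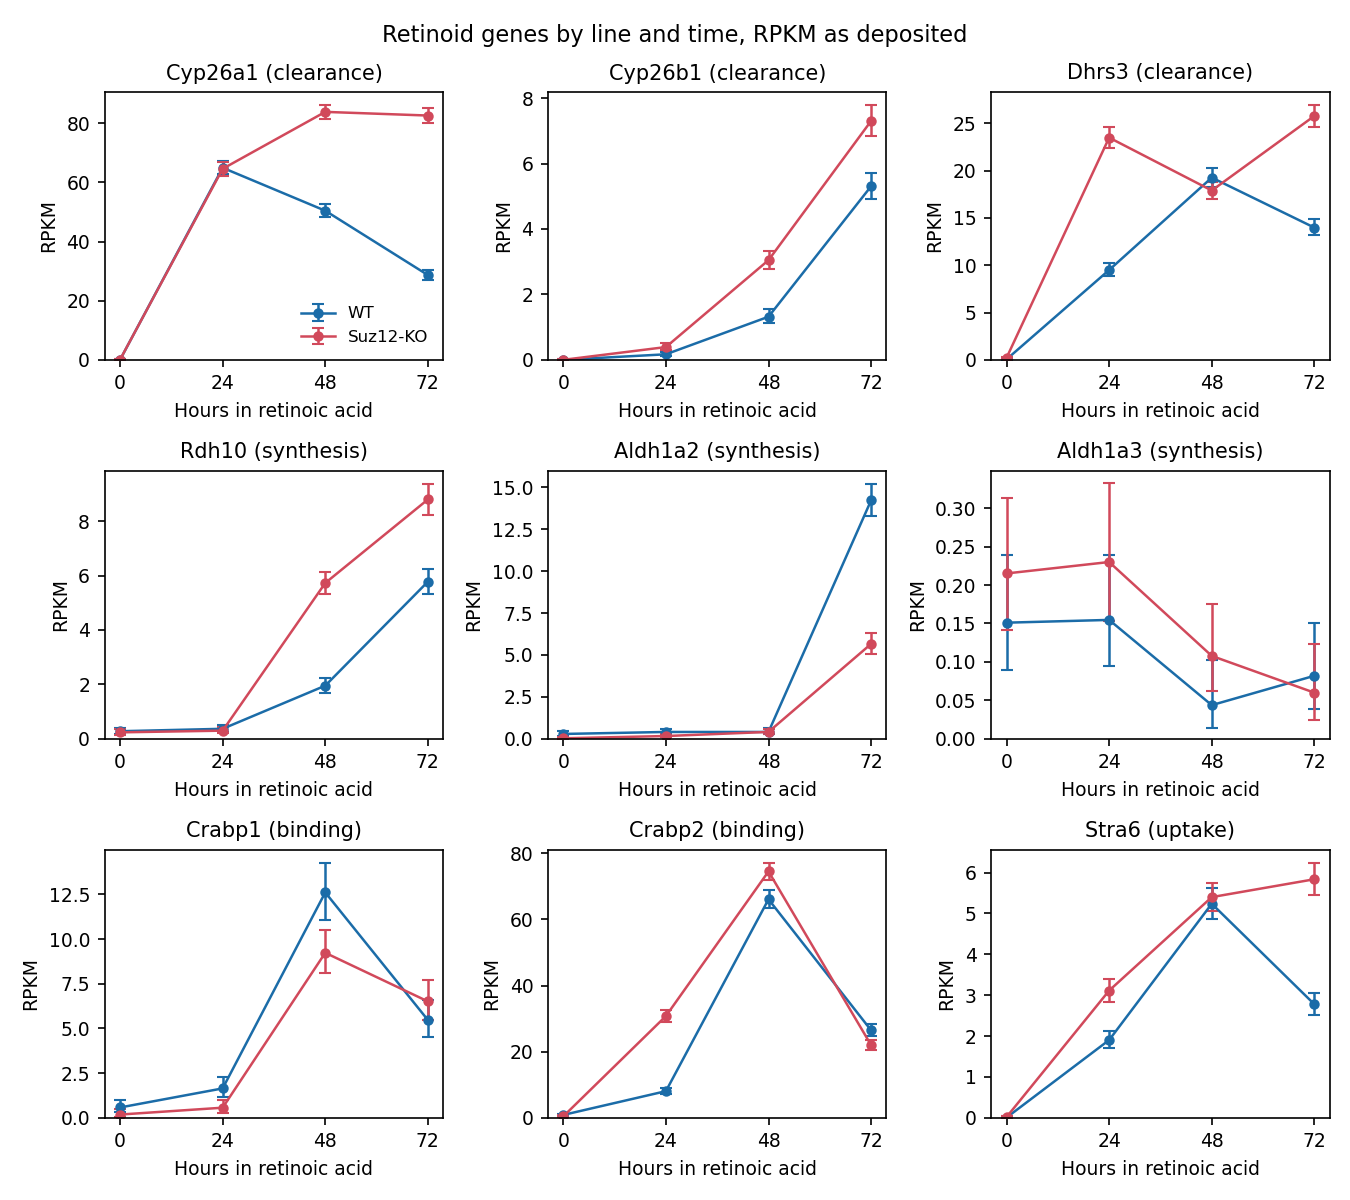
RPKM as deposited (vertical axes, each from 0 with its own scale) of the 9 genes against hours in retinoic acid, for WT (blue) and Suz12-KO (red) cells. Points are the 8 columns and bars are 95% counting intervals. Cyp26a1 is near 0 at 0 h and reaches 65.0 and 64.6 RPKM at 24 h, after which the lines part to 28.7 and 82.6 RPKM at 72 h, whereas Aldh1a2 stays under 0.5 RPKM up to 48 h.

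Cyp26a1 (ENSMUSG00000024987, chromosome 19, bases 37697798 to 37701536 of GRCm38) was the gene with the largest log2 change at 24 h of the 10860 genes kept for testing, in both lines. WT cells had 0.0218 RPKM of it at 0 h, which is 1 read, and 65.0, 50.4 and 28.7 RPKM at 24, 48 and 72 h. Suz12-KO cells had 0.0622 RPKM at 0 h, which is 3 reads, and 64.6, 83.9 and 82.6 RPKM. The WT level was thus highest at 24 h and lower at each later time, while the Suz12-KO level was higher at 48 and 72 h than at 24 h. The ratio of 24 h to 0 h was 2127 in WT cells (382 to 84049) and 727 in Suz12-KO cells (248 to 3525), both wide because of the few reads at 0 h. By 72 h WT cells had 0.400 times their 24 h level (0.375 to 0.427) and Suz12-KO cells 1.36 times theirs (1.30 to 1.43). In Suz12-KO cells the 72 h level was 1.06 times that of 48 h on the scaled values and 0.985 times as deposited, so which of these columns was highest depends on the scaling. The Suz12-KO to WT ratio accordingly went from 0.808 at 24 h (0.769 to 0.850) to 1.46 at 48 h (1.39 to 1.54) and 2.76 at 72 h (2.59 to 2.93). As deposited, without scaling, the log2 difference at 24 h was -0.01, so the lower Suz12-KO value at that time rests on the scaling, whereas at 72 h the log2 difference was 1.45 scaled and 1.51 as deposited.

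Cyp26b1 (ENSMUSG00000063415, chromosome 6, bases 84571414 to 84593908), the other clearing P450, came later and lower. No read was counted at 0 h in either line, which by a floor of 3 reads allows up to 0.0240 RPKM in WT and 0.0227 RPKM in Suz12-KO cells. WT cells then had 0.169, 1.32 and 5.31 RPKM at 24, 48 and 72 h, and Suz12-KO cells had 0.391, 3.05 and 7.30 RPKM. Both lines were highest at 72 h, and the Suz12-KO column was above the WT column at each treated time. Against that floor, the 72 h level was at least 144-fold higher in WT cells, and at least 239-fold higher in those labelled Suz12-KO. The exact counting intervals, which use a wider limit for 0 reads, begin at 116 and 194. The Suz12-KO to WT ratio was 1.88 at 24 h (1.12 to 3.22), 2.04 at 48 h (1.70 to 2.45) and 1.32 at 72 h (1.19 to 1.46).

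Dhrs3 (ENSMUSG00000066026, chromosome 4, bases 144892827 to 144928209), which returns retinaldehyde to retinol, had the third-ranked log2 change at 24 h in both lines. WT cells had 0.0529, 9.50, 19.3 and 13.97 RPKM in order of time, with the highest value at 48 h. Suz12-KO cells had 0.213, 23.5, 17.9 and 25.8 RPKM, so that their 48 h value lay below both neighbours. The 48 h level was 1.86 times that of 24 h in WT cells (1.71 to 2.04) and 0.759 times in Suz12-KO cells (0.710 to 0.811). The Suz12-KO to WT ratio was 3.35 at 0 h (1.09 to 13.7), from 17 and 4 reads, 2.01 at 24 h (1.85 to 2.19), 0.818 at 48 h (0.761 to 0.879) and 1.76 at 72 h (1.64 to 1.90).

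Among the synthesis genes, Rdh10 (ENSMUSG00000025921, chromosome 1, bases 16105774 to 16133734) was low until 24 h. It measured 0.279, 0.369, 1.95 and 5.78 RPKM in WT cells and 0.239, 0.301, 5.73 and 8.80 RPKM in Suz12-KO cells. Neither line differed between 0 h and 24 h beyond counting error, with ratios of 0.944 (0.579 to 1.56) and 0.881 (0.514 to 1.52). From 24 h to 48 h the level was 4.87 times higher in WT cells (3.49 to 6.94) and 19.0 times higher in Suz12-KO cells (13.4 to 27.8). At 0 h the Suz12-KO to WT ratio was 0.710 (0.406 to 1.24). At 48 h the Suz12-KO column was 2.58 times the WT column (2.21 to 3.03), and at 72 h 1.46 times (1.31 to 1.61).

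Aldh1a2 (ENSMUSG00000013584, chromosome 9, bases 71215789 to 71296243), which makes retinoic acid in much of the early embryo, stayed low up to 48 h and was far higher at 72 h. WT cells had 0.291, 0.410 and 0.411 RPKM at 0, 24 and 48 h and 14.2 RPKM at 72 h. Suz12-KO cells had 0.0325, 0.167 and 0.412 RPKM and then 5.66 RPKM. Their 48 h level was already 8.84 times that of 0 h (2.24 to 76.3), from 30 and 2 reads. The step from 48 to 72 h was 34.1-fold in WT cells (22.6 to 54.2), the second largest of the kept genes by log2 difference, and 14.7-fold in Suz12-KO cells (10.1 to 22.2), the ninth largest. The Suz12-KO to WT ratio was 0.0928 at 0 h (0.0104 to 0.391), from 2 and 17 reads, 0.332 at 24 h (0.143 to 0.712), 0.883 at 48 h (0.496 to 1.59) and 0.381 at 72 h (0.334 to 0.433). At 72 h it was thus the only synthesis or clearance gene of the 6 with a Suz12-KO value below WT by more than counting error.

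Aldh1a3 (ENSMUSG00000015134, chromosome 7, bases 66390890 to 66427517), the other retinaldehyde dehydrogenase among the 9, was barely detected. Its levels were 0.151, 0.155, 0.0438 and 0.0820 RPKM in WT cells and 0.215, 0.230, 0.108 and 0.0600 RPKM in Suz12-KO cells, from 5 to 28 reads per column. It did not reach 1 RPKM in any column and so was left out of the tests on kept genes. In a fit with no filter it fell by 0.38 at 72 h on the log2 scale (limma adjusted p = 0.0167), which at this depth is a change between a few reads per column. Ratios between the lines ran from 0.700 to 2.17 and every one of their counting intervals included 1.

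The binding proteins both peaked at 48 h. Crabp2 (ENSMUSG00000004885, chromosome 3, bases 87948666 to 87953376) had 0.879, 8.07, 66.1 and 26.5 RPKM in WT cells and 0.445, 30.8, 74.5 and 21.99 RPKM in Suz12-KO cells. With Cyp26a1 it reached the highest levels of the 9 genes. At 0 h the Suz12-KO column was 0.421 times the WT column (0.214 to 0.797), from 16 and 30 reads. At 24 h it was 3.10 times the WT column (2.72 to 3.54), at 48 h the ratio was 0.993 (0.939 to 1.05), and at 72 h it was 0.794 (0.720 to 0.876). Among treated times the difference between the lines was therefore largest at the first and not detectable at the peak, though as deposited the 48 h log2 difference was 0.17.

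Crabp1 (ENSMUSG00000032291, chromosome 9, bases 54764748 to 54773110) had 0.579, 1.65, 12.6 and 5.47 RPKM in WT cells and 0.183, 0.567, 9.23 and 6.51 RPKM in Suz12-KO cells. Here the Suz12-KO column was the lower one at 0, 24 and 48 h, with ratios of 0.263 (0.0618 to 0.868), 0.280 (0.133 to 0.549) and 0.645 (0.537 to 0.773). At 72 h the ratio was 1.14 (0.880 to 1.47). The RPKM of Crabp2 over that of Crabp1 was 1.52, 4.90, 5.24 and 4.84 in WT cells. The same ratio was 2.43, 54.3, 8.08 and 3.38 in Suz12-KO cells. At 24 h, when Crabp2 was already high in Suz12-KO cells and Crabp1 was not, Crabp1 rested on 37 reads in WT and 12 in Suz12-KO cells.

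Stra6 (ENSMUSG00000032327, chromosome 9, bases 58063788 to 58153996), the uptake receptor, had 0.00664, 1.90, 5.24 and 2.78 RPKM in WT cells and 0.0189, 3.11, 5.40 and 5.84 RPKM in Suz12-KO cells, with 1 and 3 reads at 0 h. The WT level was highest at 48 h, whereas the Suz12-KO level at 72 h was 1.16 times that at 48 h (1.06 to 1.27). The Suz12-KO to WT ratio was 1.33 at 24 h (1.15 to 1.54), 0.907 at 48 h (0.825 to 0.999) and 2.01 at 72 h (1.79 to 2.26). As deposited the 48 h difference was 0.04 on the log2 scale, so its direction depends on the scaling.

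**Figure D2:**
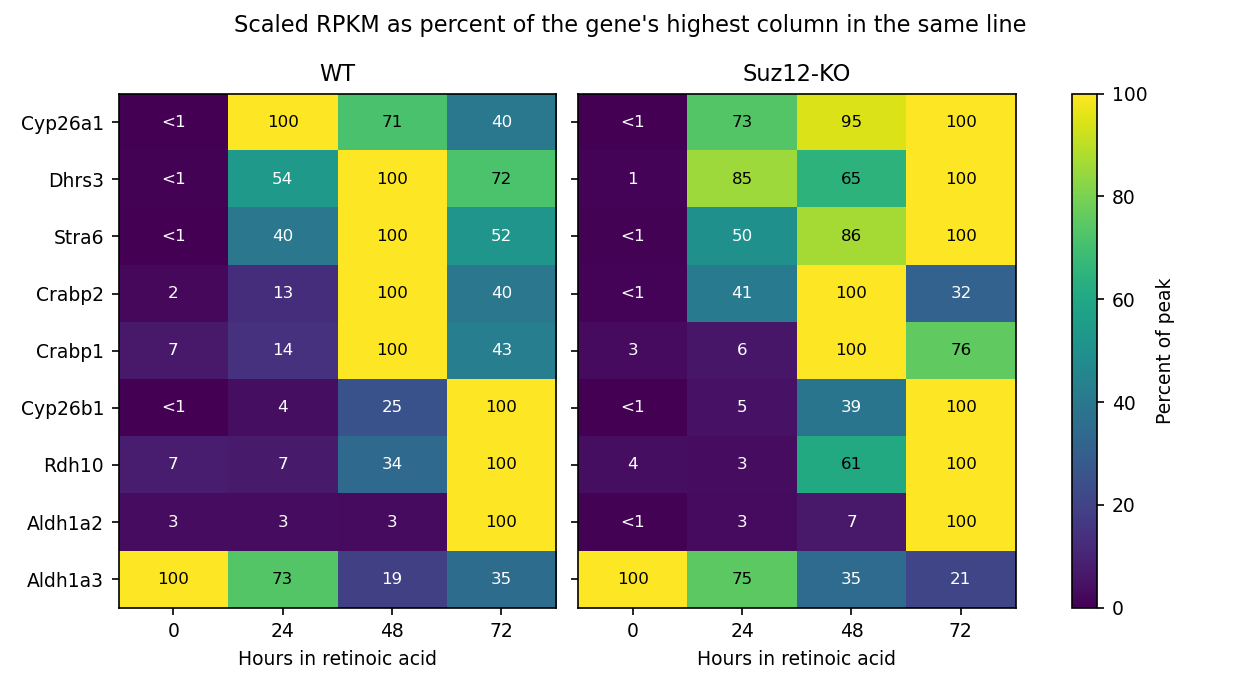
Scaled RPKM of each gene at each time as a percentage of that gene's highest column in the same line, for WT (left) and Suz12-KO (right), with hours in retinoic acid across. Colour and printed number give the same percentage. Cyp26a1, Dhrs3 and Stra6 have their highest WT value at 24 or 48 h and their highest Suz12-KO value at 72 h (for Cyp26a1 at 48 h as deposited), while Crabp1 and Crabp2 are highest at 48 h and Cyp26b1, Rdh10 and Aldh1a2 at 72 h in both lines.

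Changes with time were tested with limma on log2(scaled RPKM + 0.5), with line and time as terms and Benjamini-Hochberg adjustment over the 10860 kept genes. With 1 column per group the 2 lines stand in for replicates, and p says nothing about the spread between cultures. A small p says that the mean change was large against the departures of the lines from a shared time course. The change could still differ in size between the lines, as for Crabp2 at 24 h (log2 2.32 in WT and 4.67 in Suz12-KO cells). At 24 h 4 of the 8 kept genes rose, where 11.7% of kept genes were called higher. These were Cyp26a1 by 6.78 (SE 0.39, adjusted p = 0.00239), Dhrs3 by 4.45 (SE 0.29, adjusted p = 0.00239), Crabp2 by 3.50 (SE 0.52, adjusted p = 0.00957) and Stra6 by 2.42 (SE 0.24, adjusted p = 0.00417) on the log2 scale. At 48 h 7 of 8 rose, against 24% of kept genes, Aldh1a2 being the exception with a difference of 0.30 (SE 0.29, adjusted p = 0.424). At 72 h 8 of 8 rose, against 29.7%, by 2.60 (Crabp1) to 6.35 (Cyp26a1), with limma adjusted p from 0.000135 to 0.00135. The genes were chosen with earlier results of these data known, so these p-values describe single genes and do not test the set. The median difference of the 8 genes was 1.502, 3.35 and 3.64 at the 3 times, where that of all kept genes was 0.01, -0.01 and 0.01. The 24 h calls over all kept genes numbered 2583, and 1377 in a fit without the 48 h columns.

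That count is partly set by the filter. All 8 genes were under 1 RPKM in both 0 h columns and were kept through a treated column, as were 2706 kept genes, of which 24.9%, 49.7% and 58.4% were called higher at 24, 48 and 72 h. In the fit with no filter, 4, 7 and 8 of the 9 genes rose, where 3.14%, 11.3% and 15.2% of all 24452 genes were called higher. In it Aldh1a3 fell at 48 and 72 h, where 10.1% and 14.1% were called lower. On the log2(scaled RPKM + 0.5) scale 4, 7 and 8 of the 8 kept genes were at least 2-fold above their 0 h level at the 3 times in WT cells. Of the 2706 low-starting genes 11.2%, 31.5% and 39.4% were, and of all kept genes 4.52%, 12.5% and 16.2%. The counts were equal in Suz12-KO cells, against 16.8%, 32.6% and 42.2% of the low-starting and 6.18%, 11.8% and 16.7% of all kept genes. Being kept through a treated column fixed a rise of some size, as deposited, in at least 1 line at some time. It did not fix how large the rise was or when it came. These counts are therefore a description. The authors' deposited table marks 8 of the 9 genes for a difference of 72 from 0 h in WT cells, all but Aldh1a3, and all 9 in Suz12-KO cells. It marks 30.2% and 33.1% of kept genes in the same comparisons, without a direction, and 49.7% and 51.8% of the low-starting ones.

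The difference between the lines was tested in the same fit, averaged over the 4 times. Its p weighs the mean difference against how unevenly it held over time. None of the 8 genes passed, where 5.59% of kept genes did, and 3 were below an unadjusted p of 0.05, as 24% of kept genes were. These 3 were Aldh1a2 with -0.67 (SE 0.20, limma adjusted p = 0.114), Crabp1 with -0.62 (SE 0.21, adjusted p = 0.149) and Cyp26b1 with 0.36 (SE 0.14, adjusted p = 0.197), Suz12-KO minus WT on the log2 scale. Dhrs3 gave 0.47 (SE 0.21, limma adjusted p = 0.234), Cyp26a1 0.45 (SE 0.27, adjusted p = 0.368) and Crabp2 0.12 (SE 0.37, adjusted p = 0.874). On scaled RPKM, Cyp26a1, Dhrs3, Crabp2 and Stra6 each had Suz12-KO above WT at some treated times and below at others, and the Crabp2 average was -0.37 without the 24 h columns. Of all kept genes 607 passed, and 65, 134 or 172 did without the 48, 24 or 72 h columns.

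At single times few of the genes were 2-fold apart between the lines on the log2(scaled RPKM + 0.5) scale. At 0 h none was higher or lower, where 3.18% and 2.15% of kept genes were, and the added 0.5 damps ratios of low levels such as those of Aldh1a2. At 24 h Crabp2 was higher in Suz12-KO cells, as 2.03% of kept genes were, and Crabp1 lower, as 2.08% were. Dhrs3 lay just under the limit at 0.97, but at 1.26 as deposited, so its place rests on the scaling. At 48 h Rdh10 was higher, as 1.69% of kept genes were, and none was lower, as 2.99% were. At 72 h Cyp26a1 was higher, as 2.46% were, and Aldh1a2 lower, as 3.01% were. Without the added 0.5, further ratios of kept genes at treated times passed 2-fold. These were Aldh1a2 (0.332) and Dhrs3 (2.01) at 24 h, Cyp26b1 (2.04) at 48 h and Stra6 (2.01) at 72 h. These comparisons have no replicate check, and no p is given for them.

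Markers of endoderm differed between the lines at the same times. The 12 endoderm markers, which include Gata6, Sox17, Afp and Sparc, summed to 8.90, 9.10, 32.1 and 60.8 RPKM in WT cells. They summed to 26.4, 31.8, 152 and 280 RPKM in Suz12-KO cells. Sparc was the highest of the 12 in every column. It alone had 5.64, 4.85, 14.7 and 37.8 RPKM in WT and 11.7, 11.1, 45.2 and 119 RPKM in Suz12-KO cells. At 72 h 6 of the 12 were at 1 RPKM or more in WT and 10 in Suz12-KO cells. Gata6, Sox17 and Afp had no reads in WT cells at 0 h, Afp had none in Suz12-KO cells at 0 h or in WT cells at 24 h, and Amn had none in WT cells at 72 h. The part of such cells in the line differences of the 9 genes was not tested.

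**Figure D3:**
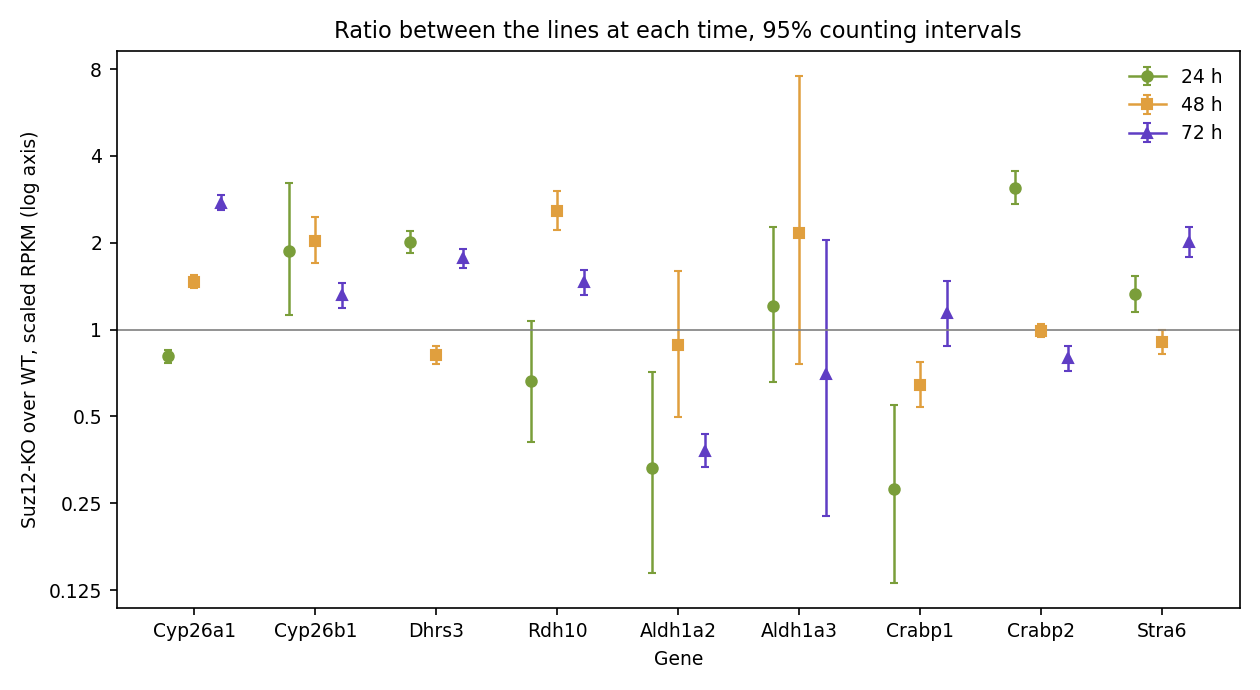
Ratio of Suz12-KO to WT scaled RPKM (log axis) for the 9 genes at 24, 48 and 72 h, with 95% counting intervals. The line at 1 marks equal levels. Crabp2 at 24 h (3.10) and Cyp26a1 at 72 h (2.76) lie highest, Crabp1 at 24 h (0.280), Aldh1a2 at 24 h (0.332) and Aldh1a2 at 72 h (0.381) lowest, and the wide intervals belong to genes with few reads.

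Clearance genes were set against synthesis genes by the mean log2(scaled RPKM + 0.5) of Cyp26a1, Cyp26b1 and Dhrs3 minus that of Rdh10, Aldh1a2 and Aldh1a3. In WT cells the difference was -0.65, 3.26, 3.48 and 1.81 at 0, 24, 48 and 72 h. In Suz12-KO cells it was -0.19, 3.81, 3.43 and 2.97. The mean of these clearance genes thus exceeded that of these synthesis genes at every treated time in both lines. The barely detected Aldh1a3 lowers the synthesis mean, and a score without it was not computed. Its log2 value at 72 h was -0.79 in WT and -0.85 in Suz12-KO cells. Rdh10 had 2.56 and 3.07 in the same columns, and Aldh1a2 had 3.79 and 2.48. The WT excess at 72 h was the smallest of the treated columns. The Suz12-KO minus WT difference of this balance was 0.47, 0.55, -0.05 and 1.16, with 95% counting half-widths of 0.225, 0.176, 0.156 and 0.110. At 72 h Cyp26a1, Dhrs3 and Cyp26b1 were higher and Aldh1a2 lower in Suz12-KO cells, while Rdh10, on the synthesis side, was higher. No p is given for this score, because the genes were chosen with results known.

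In summed scaled RPKM, clearance exceeded synthesis 80.0-fold at 24 h, 29.5-fold at 48 h and 2.39-fold at 72 h in WT cells. The same ratios were 127, 16.8 and 7.97 in Suz12-KO cells. At 48 h WT cells were the higher line in both summaries, by 0.05 on the mean log2 scale, within counting error, and by 0.81 on the log2 scale of the sums. Cyp26a1 alone made up 87.1%, 71.0% and 59.8% of the clearance sum at the 3 treated times in WT cells. Its share was 73.0%, 80.0% and 71.4% in Suz12-KO cells. RNA levels do not measure enzyme activity or the retinoic acid left in the medium, and neither was measured here.

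**Figure D4:**
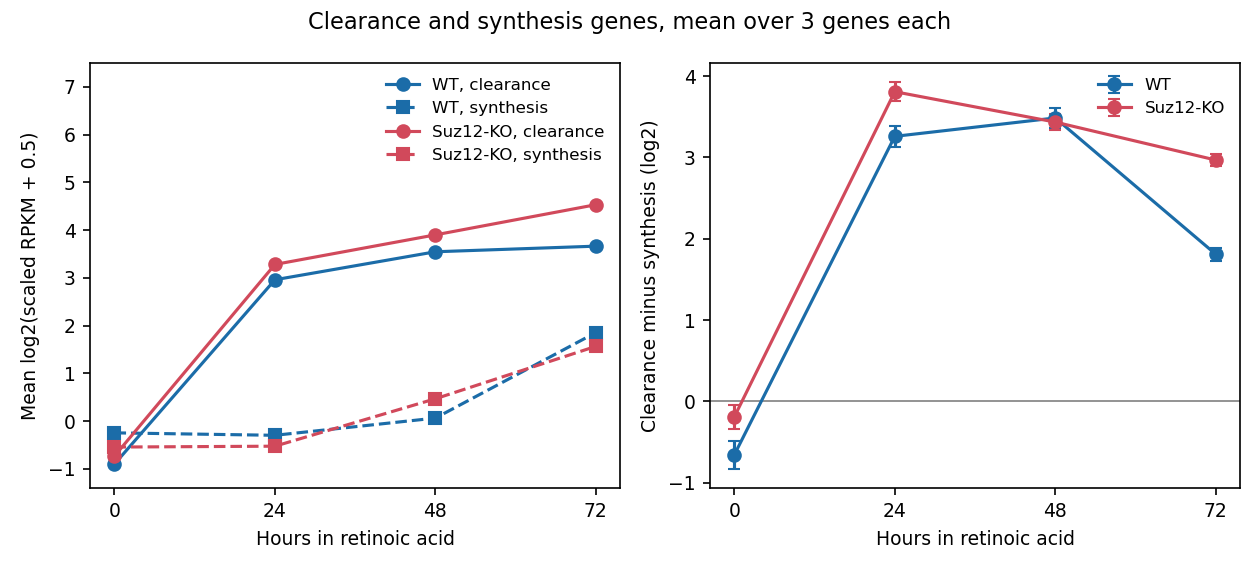
Left, mean log2(scaled RPKM + 0.5) of the 3 clearance genes (solid) and the 3 synthesis genes (dashed) against hours in retinoic acid for both lines. Right, clearance minus synthesis with 95% counting half-widths as bars, where 0 is equal means. The lines meet at 48 h (3.48 WT, 3.43 Suz12-KO) and part at 72 h (1.81 WT, 2.97 Suz12-KO).

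The closest pairs of the kept genes over the 8 columns by Pearson correlation of log2(scaled RPKM + 0.5) were Cyp26a1 with Dhrs3 (r = 0.979), Cyp26b1 with Rdh10 (r = 0.975) and Dhrs3 with Stra6 (r = 0.974). The least alike were Aldh1a2 and Crabp2 (r = 0.277). Among 4731 protein-coding genes with a log2 range of at least 1, the gene closest to Cyp26a1 was Elovl4 (r = 0.995), followed by Arhgef10 and Vsir. Vsir was also closest to Dhrs3 (r = 0.992), followed by Klhl5 and Hoxb4. Closest to Cyp26b1 was Lpar3 (r = 0.997), then Tnfaip8 and Draxin, and closest to Rdh10 was Nrp1 (r = 0.992), then Lbh and Spcs1. Closest to Aldh1a2 was Cxcl15 (r = 0.985), then Bnc1 and Klhdc10. For Crabp2 the order was Nuak2 (r = 0.990), Olfm1 and Dhcr7, for Crabp1 Cpm (r = 0.968), Vamp3 and P3h2, and for Stra6 Daglb (r = 0.991), Ppl and Cuedc1. These correlations are descriptions over 8 columns that share their 0 h starting points and scaling.

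Of 36 further genes of retinoid handling, 31 were in the table and 12 were kept. At both 48 and 72 h 7 of the 12 rose, where 24% and 29.7% of kept genes did. Among them were the plasma carriers Rbp4 and Ttr and the fatty acid and retinoic acid binding protein Fabp5. The retinol dehydrogenase Rdh11 and the aldehyde dehydrogenases Aldh1a1 and Aldh1a7 were others. All of these but Rdh11 were under 1 RPKM in both 0 h columns and were kept through a treated column. Of all such low-starting kept genes 49.7% and 58.4% were called higher at these times, so the count is a description. Aldh1a1 went from no reads at 0 h to 4.02 RPKM in WT and 5.72 RPKM in Suz12-KO cells at 72 h. Aldh1a1 and Aldh1a7 are close copies, so the split of reads between them is uncertain. The retinaldehyde-binding protein Rlbp1 fell at 48 and 72 h, by 0.94 and 1.57, and the first of these calls is lost as deposited (limma adjusted p = 0.0541). The dehydrogenase Adh5 fell at all 3 times by at most 0.56, but as deposited its differences were 0.09, 0.01 and -0.04 and did not pass.

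Between the lines, Dhrs4, a retinal reductase, was higher in Suz12-KO cells by 0.54 (SE 0.09, limma adjusted p = 0.0333), at 2.26, 2.52, 3.49 and 3.13 RPKM in WT and 4.76, 5.18, 5.86 and 4.13 RPKM in Suz12-KO cells. On the scale set by protein-coding RPKM its adjusted p was 0.0549. Rlbp1 was lower by 0.78 (SE 0.15, limma adjusted p = 0.0427). The third clearing P450, Cyp26c1, stayed at 0.255 RPKM or less in every column. Of the 6 retinoid receptors, 5 were kept, and Rarb, itself a known retinoic acid target, rose at 24, 48 and 72 h by 2.76, 4.00 and 4.15, while Rxra rose at 48 and 72 h. Rarg differed by -0.98, -2.68 and -2.50 and fell at each time, but the first change passed on the main scale alone (limma adjusted p = 0.0489), and no receptor passed between the lines.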

How the data were processed

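RNA was measured in mouse embryonic stem cells of 2 lines at 4 times, 16 samples by the labels, and the deposited table holds 1 RPKM column per group for 24452 genes. Per the submitters' processing notes, TopHat, featureCounts and DESeq2 were used with GRCm38 (mm10), and no versions are named. Per the file headers, gene IDs are those of Ensembl release 72 and RPKM is the unit the authors deposited. The authors' deposited table also marks genes as TRUE or FALSE for a difference between 72 and 0 h in each line, with no direction. The sources used here give neither the threshold of these marks nor how the samples were combined into columns. Gene IDs were matched to GENCODE M21 (GRCm38) for symbols and positions, and 595 IDs had no symbol.

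Whole reads were recovered by finding the total of each column and the length of each gene that turn RPKM into whole numbers. Every one of the 153803 values above 0 was then whole to within 0.01 reads. The annotated length served for 14150 genes. For the other 10302, Cyp26a1, Cyp26b1 and Aldh1a3 among them, the smallest length that gave whole reads was taken, so their wholeness is no check. Totals were 24731176 to 32153765 reads. Exact Poisson intervals for levels, exact conditional intervals for ratios and the floor of 3 reads come from these and cover counting error only, not the scaling or the cultures. Each column of RPKM was divided by its own median-of-ratios factor (log2 between -0.53 for WT at 0 h and 0.26 for Suz12-KO at 48 h), because a single RNA took unequal shares of the columns. Genes with at least 1 RPKM in at least 1 column were kept (10860). limma 3.58.1 in R 4.3.3 was fitted to log2(scaled RPKM + 0.5) in all 8 columns with line and time as terms (3 residual degrees of freedom), trended empirical Bayes and Benjamini-Hochberg adjustment at 0.05, and was tested on simulated data. Without replicate columns its p-values weigh a mean difference against its unevenness over times or lines, and do not measure the spread between cultures. The log2 differences depend on the added 0.5 for low genes.

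The 9 genes, their roles, the further lists and the tests were chosen with earlier results of these data known. Named beyond the 9 were, for each, the 3 protein-coding genes of most similar profile with a log2 range of at least 1, the members of the retinoid handling list that passed a contrast, and receptors. The values of 1 gene of the retinoid handling list are not reported here. Promoter sequences are from RefSeq (GRCm38.p6). Alternatives tried were other scalings, added constants, filters, no variance trend, leaving out each time, and other summaries of clearance against synthesis.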

Additional observations from a re-analysis of the deposited data

Results flagged for a closer look

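Between some pairs of treated times, several of the 9 genes changed in opposite directions in the 2 lines. With 1 column per group the difference between the lines in these changes was not tested, and the intervals given cover counting error only.

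At 48 h Cyp26a1 was at 0.714 times its 24 h level in WT cells (0.676 to 0.754) and at 1.29 times in Suz12-KO cells (1.23 to 1.35). At 72 h it was at 0.561 times its 48 h level in WT cells (0.524 to 0.600) and at 1.06 times in Suz12-KO cells (1.01 to 1.10). The latter is 0.985 times as deposited, so the opposite direction at this step rests on the scaling. At 72 h it was at 0.400 times its 24 h level in WT cells and at 1.36 times in Suz12-KO cells.

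Dhrs3 at 48 h was at 1.86 times its 24 h level in WT cells and at 0.759 times in Suz12-KO cells. At 72 h it was at 0.716 times its 48 h level in WT cells (0.660 to 0.775) and at 1.54 times in Suz12-KO cells (1.44 to 1.65), the opposite of the step before. Crabp2 at 72 h was at 2.97 times its 24 h level in WT cells (2.61 to 3.40) and at 0.762 times in Suz12-KO cells (0.693 to 0.838). At each step between, Crabp2 moved the same way in both lines. Its 48 h level was 7.53 times that of 24 h in WT and 2.41 times in Suz12-KO cells. Its 72 h level was 0.395 and 0.316 times that of 48 h. Stra6 at 72 h was at 0.523 times its 48 h level in WT cells (0.464 to 0.590) and at 1.16 times in Suz12-KO cells (1.06 to 1.27), or 1.08 times as deposited.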

How the results depend on the processing

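Directions and calls of the tested genes held in 300 of 304 alternative values. The exceptions were Crabp2 between the lines, -0.37 without the 24 h columns and up to 0.41 without another time, against 0.12, Rdh10 at 24 h, 0.14 as deposited and 0.022 on the protein-coding scale against -0.05, none of which passed, and Cyp26b1 at 24 h, which passed with an added constant of 0.1 (1.78, limma adjusted p = 0.0104). None of the 8 genes passed between the lines in any of 88 alternative values (limma adjusted p 0.0669 to 0.964). Of the alternative values of differences between 2 columns, 45 of 429 moved. Peak times moved in 4 of 36, those of Cyp26a1 in Suz12-KO cells and of Aldh1a3 in both lines. Over all genes, 607 passed between the lines, 1308 as deposited, 132 with no filter and 65 to 548 when a time was left out. At 24 h 2583 passed, 4420 as deposited, 1638 with no filter and 1377 to 2482 when a time was left out. At 48 h it was 5101, and 4566 to 5199, and at 72 h 6364, and 5620 to 5975. As deposited the median gene shifts by 0.15 between the lines and by 0.39, 0.45 and 0.42 at the 3 times. The split into higher and lower calls then moves from 345 and 262 to 1135 and 173 between the lines, from 1273 and 1310 to 4035 and 385 at 24 h, from 2606 and 2495 to 5096 and 831 at 48 h, and from 3224 and 3140 to 4997 and 1320 at 72 h. On the protein-coding scale the split was 1835 and 760, 3333 and 1557, and 3663 and 2419 at the 3 times. The Suz12-KO minus WT balance of clearance and synthesis moved at 0 h from 0.47 to 1.18 with a constant of 0.1 and to 2.45 as a ratio of sums. At 24 h it moved from 0.55 to 0.22 without Dhrs3 and to 0.91 with a constant of 0.1. At 48 h it moved from -0.05 to 0.27 without Dhrs3 and to -0.81 as a ratio of sums, and at 72 h from 1.16 to 1.74 as a ratio of sums. The cause of these moves was not tested. No paired analysis was possible because the table has 1 column per group and carries no replicate numbers. Depth limits the genes near 0 at 0 h and Aldh1a3 at every time.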
